A study of Mus musculus with 12 samples.

Results

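The 10 genes described here encode CC chemokines, small secreted proteins named for a pair of neighbouring cysteines near their start. They are Ccl2, Ccl3, Ccl4, Ccl5, Ccl6, Ccl7, Ccl9, Ccl12, Ccl17 and Ccl22, matched by mouse gene symbol to the Ensembl identifiers of a table of 54532 genes. All 10 were found and all 10 were among the 11335 genes tested, which reached 1 FPKM in at least 3 of the 12 libraries. FPKM counts fragments per kilobase of merged exon, scaled here so that the typical gene is level across libraries, and every level below is in this unit. Ccl17 reached 1 FPKM in LPS-treated macrophages only, and Ccl5 and Ccl22 reached it in the LPS-treated groups only, so these 3 had to differ between groups to be tested.

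The libraries came from bone marrow cells of wild-type (WT) mice in 4 groups of 3. Macrophages were marrow cells grown with 2% CMG, a source of the macrophage growth factor M-CSF. Osteoclasts, the multinucleated cells that resorb bone, were made from such macrophages with the same CMG plus RANKL, which the labels give as 100 ng/mL for these samples and as 50 to 100 ng/mL in the protocol. On day 5 each cell type was left untreated or given 100 ng/mL LPS, a part of the outer membrane of Gram-negative bacteria, for 3 h. Strain, sex and age of the mice are not given in the sources used here. The labels do not say whether the 3 libraries of a group came from separate mice or cultures, so p-values measure the spread between these samples, which may be technical. Osteoclast cultures of this kind also hold mononuclear cells that have not fused, and the labels name no step that separates them.

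Chemokines bind receptors on leukocytes and guide them along gradients. Toll-like receptor 4 senses LPS on macrophages and, through NF-κB and interferon regulatory factors, switches on many chemokine genes within hours. In bone, CC chemokines draw osteoclast precursors to resorption sites, and several act through CCR1, a receptor carried by osteoclasts and their precursors.

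Libraries held between 15651766 and 20281445 assigned reads, and 9728 to 10301 genes reached 1 FPKM in each. The labels fitted the markers: 8 osteoclast markers summed to 15.3 to 28.0 FPKM in the macrophage libraries and to 28954 to 31944 FPKM in the osteoclast libraries. The 6 macrophage markers summed to 1956 to 2299 FPKM in macrophages and still to 1691 to 1795 FPKM in osteoclasts, where the list divided. Without LPS, Cd68 in osteoclasts was at 209% and Csf1r at 70.4% of the macrophage level, Mertk at 9.22%, Adgre1 at 7.74%, Mrc1 at 0.877% and Cx3cr1 at 0.342%. The 6 dendritic cell markers summed to 1.21 to 1.73 FPKM in untreated and 6.83 to 7.27 FPKM in LPS-treated macrophages, and to 8.17 to 8.41 FPKM and 8.05 to 9.66 FPKM in osteoclasts. Itgax led in osteoclasts (7.63 FPKM untreated), Xcr1 led in LPS-treated macrophages (5.31 FPKM), Zbtb46 was at most 1.01 FPKM and Ccr7 at most 0.327 FPKM in any group mean, and Cd209a and Flt3 were at or near 0. B cell and mast cell and basophil lists summed to less than 1 FPKM in every library. T and NK cell markers summed to at most 0.182 FPKM in macrophages and to 2.92 to 3.96 FPKM in osteoclasts, where Trac was at 3.84 FPKM untreated while Cd3g and Ncr1 were at 0 and Cd3e near 0. Neutrophil markers summed to 2.00 to 4.10 FPKM in macrophages and 0.170 to 1.53 FPKM in osteoclasts, led by S100a8. The part of such cells in the chemokine values was not tested. Stromal and osteoblast markers summed to 26.1 to 36.0 FPKM in macrophages and 0.613 to 1.39 FPKM in osteoclasts, led by Col1a1 at 19.9 ± 2.94 FPKM (SD, n = 3) in untreated macrophages. In such bulk libraries, fewer cells of a type and less RNA per cell cannot be told apart.

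Replicate 2 of the LPS-treated osteoclasts stood apart for these genes. It was the lowest of its group for 9 of the 10 members, at 37.8% (Ccl12) to 60.7% (Ccl2) of the mean of the other 2 for Ccl2, Ccl3, Ccl4, Ccl5, Ccl6, Ccl7 and Ccl12, 76.9% for Ccl22 and 92.9% for Ccl9. Among 242 genes with a called rise of 1 or more in osteoclasts on the log2(FPKM + 1) scale, 215 (88.8%) were lowest in this library, at a median of 65.1% of the other 2, while the median over all genes tested was 100.3%. Of the 6 macrophage markers in the same library, Adgre1, Mrc1, Mertk and Cx3cr1 were at 59.1%, 48.0%, 69.2% and 40.5% of the other 2, and Csf1r and Cd68 at 105.6% and 108%, and their part in the chemokine values was not tested. Without this library the LPS effect in osteoclasts was 3.10 in place of 2.87 for Ccl2, 5.94 in place of 5.67 for Ccl3, 6.48 in place of 6.19 for Ccl4 and 6.49 in place of 6.23 for Ccl5. It was 4.13 in place of 3.81 for Ccl7, 0.82 in place of 0.78 for Ccl9, 3.46 in place of 3.04 for Ccl12 and 4.19 in place of 4.07 for Ccl22. All 8 were called with and without it, and Ccl22 was the 1 member whose interaction call was lost, as given with that result.

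The members lie in 3 groups of neighbouring genes (GRCm38, GENCODE M21). On chromosome 11, Ccl2 (ENSMUSG00000035385, 82035571 to 82037453), Ccl7 (ENSMUSG00000035373, 82045712 to 82047525) and Ccl12 (ENSMUSG00000035352, 82101845 to 82103400) lie in this order on the plus strand within 67.8 kb. Ccl11 lies between Ccl7 and Ccl12. Farther along the same chromosome, within 139 kb, lie Ccl5 (ENSMUSG00000035042, 83525778 to 83530518), Ccl9 (ENSMUSG00000019122, 83572919 to 83578636), Ccl6 (ENSMUSG00000018927, 83587882 to 83593087) and Ccl3 (ENSMUSG00000000982, 83647844 to 83649355) on the minus strand. Ccl4 (ENSMUSG00000018930, 83662584 to 83664683) ends that group on the plus strand. On chromosome 8, Ccl22 (ENSMUSG00000031779, 94745590 to 94751699) and Ccl17 (ENSMUSG00000031780, 94810453 to 94812036) lie on the plus strand within 66.4 kb. No member has exons that overlap in position with those of another annotated gene. Ccl9 was the 1 member with 50-base stretches of transcript that also occur in other genes, 59 of 2996 (1.97%). They occur in 250 other genes, so the Ccl9 values are somewhat uncertain.

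RefSeq promoter sequences on GRCm38.p6 were found for 6 of the 10 members (Ccl3, Ccl6, Ccl9, Ccl12, Ccl17 and Ccl22). The 250 bases before the RefSeq start are printed for 4 of them, because they form 2 pairs of members near each other on the chromosome that differed in their response to LPS: Ccl9 rose with LPS and its neighbour Ccl6 was not called, and Ccl22 was induced in both cell types while Ccl17, beyond Cx3cl1, was induced in macrophages and at the floor in osteoclasts. Each sequence runs 5′ to 3′ along its own gene. Capitals mark matches, on either strand, to the κB motif GGGNNNNNCC, the AP-1 motif TGANTCA and the STAT motif TTCNNNNGAA, and these matches do not overlap each other.
Ccl9 (chr11:83578637-83578886, minus strand): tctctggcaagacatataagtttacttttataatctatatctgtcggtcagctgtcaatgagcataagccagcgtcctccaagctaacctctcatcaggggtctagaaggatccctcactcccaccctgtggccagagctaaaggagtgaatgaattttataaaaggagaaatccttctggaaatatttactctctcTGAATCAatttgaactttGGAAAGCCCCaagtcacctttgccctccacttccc
Ccl6 (chr11:83593088-83593337, minus strand): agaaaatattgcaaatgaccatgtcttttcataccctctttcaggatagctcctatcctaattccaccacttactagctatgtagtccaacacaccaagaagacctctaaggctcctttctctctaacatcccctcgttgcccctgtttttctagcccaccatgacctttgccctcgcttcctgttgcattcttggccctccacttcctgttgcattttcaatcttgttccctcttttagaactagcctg
Ccl22 (chr8:94745434-94745683, plus strand): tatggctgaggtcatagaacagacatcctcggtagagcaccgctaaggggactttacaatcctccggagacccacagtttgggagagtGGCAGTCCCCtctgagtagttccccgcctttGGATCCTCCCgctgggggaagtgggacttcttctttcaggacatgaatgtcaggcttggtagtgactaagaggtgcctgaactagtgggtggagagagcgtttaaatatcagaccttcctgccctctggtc
Ccl17 (chr8:94810203-94810452, plus strand): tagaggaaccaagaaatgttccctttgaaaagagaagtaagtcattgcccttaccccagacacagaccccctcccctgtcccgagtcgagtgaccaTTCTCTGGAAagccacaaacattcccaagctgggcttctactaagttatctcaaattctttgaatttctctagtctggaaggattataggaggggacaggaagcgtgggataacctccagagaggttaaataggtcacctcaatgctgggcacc

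In the Ccl9 sequence the capitals are an AP-1 match beginning 53 bases before the start and a κB match beginning 35 bases before it. Ccl6, with a gap of 9.25 kb between the 2 gene bodies, had no match to any of these 3 motifs. The closest stretch between the Ccl9 and Ccl6 promoters had 59 identical columns of 74, or 79.7%, with 7 gaps, and ran past the start of both genes. In the Ccl22 sequence both stretches in capitals are κB matches, beginning 162 and 131 bases before the start. Its RefSeq start lies 94 bases inside the GENCODE gene. In the Ccl17 sequence the stretch in capitals is a STAT match beginning 154 bases before the start. Over windows of 300 bases (250 before to 50 after the start), the κB motif was in 2 of 6 member promoters and in 50.8% of all 32851 promoters. The AP-1 motif was in 1 of 6 and in 7.81% of all, and the STAT motif was in 1 of 6 and in 6.95% of all. The interferon response motif GAAANNGAAA was in 0 of the 6 and in 3.44% of all, and the C/EBP motif TTGCNNAA was in 0 of the 6 and in 10.8% of all. The PU.1 motif GAGGAA was in 3 of 6 (Ccl3, Ccl12 and Ccl17) and in 28.3% of all, and TATAAA was in 2 of 6 (Ccl9 and Ccl12) and in 13.6% of all. A match of letters is a description and not a binding site, and a missing match concerns this window alone.

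LPS raised most of the family in both cell types, from different starting points and to very different levels. In macrophages 9 of the 10 members rose, against 36.8% of all genes tested, and Ccl6 was the exception. In osteoclasts 8 rose, against 11.1% of all genes tested, and Ccl6 and Ccl17 did not. All of these calls are from limma on log2(FPKM + 1) with Benjamini-Hochberg adjustment over the 11335 genes, at an adjusted p under 0.05. The median log2 difference of the 10 members was 5.04 in macrophages and 3.43 in osteoclasts, beside 0.023 and 0.0055 over all genes tested.

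The summed level of the 10 genes was 349 ± 14.7 FPKM in untreated macrophages and 16899 ± 219 FPKM after LPS (SD, n = 3). In osteoclasts it was 433 ± 13.9 FPKM without LPS and 1249 ± 191 FPKM with LPS. As a share of all FPKM in the library, the family went from 0.135 ± 0.00451% to 4.17 ± 0.0855% in macrophages. In osteoclasts the same share went from 0.125 ± 0.00471% to 0.343 ± 0.0454%. The untreated cell types were thus close in total chemokine level, and the make-up of that total differed.

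**Figure D1:**
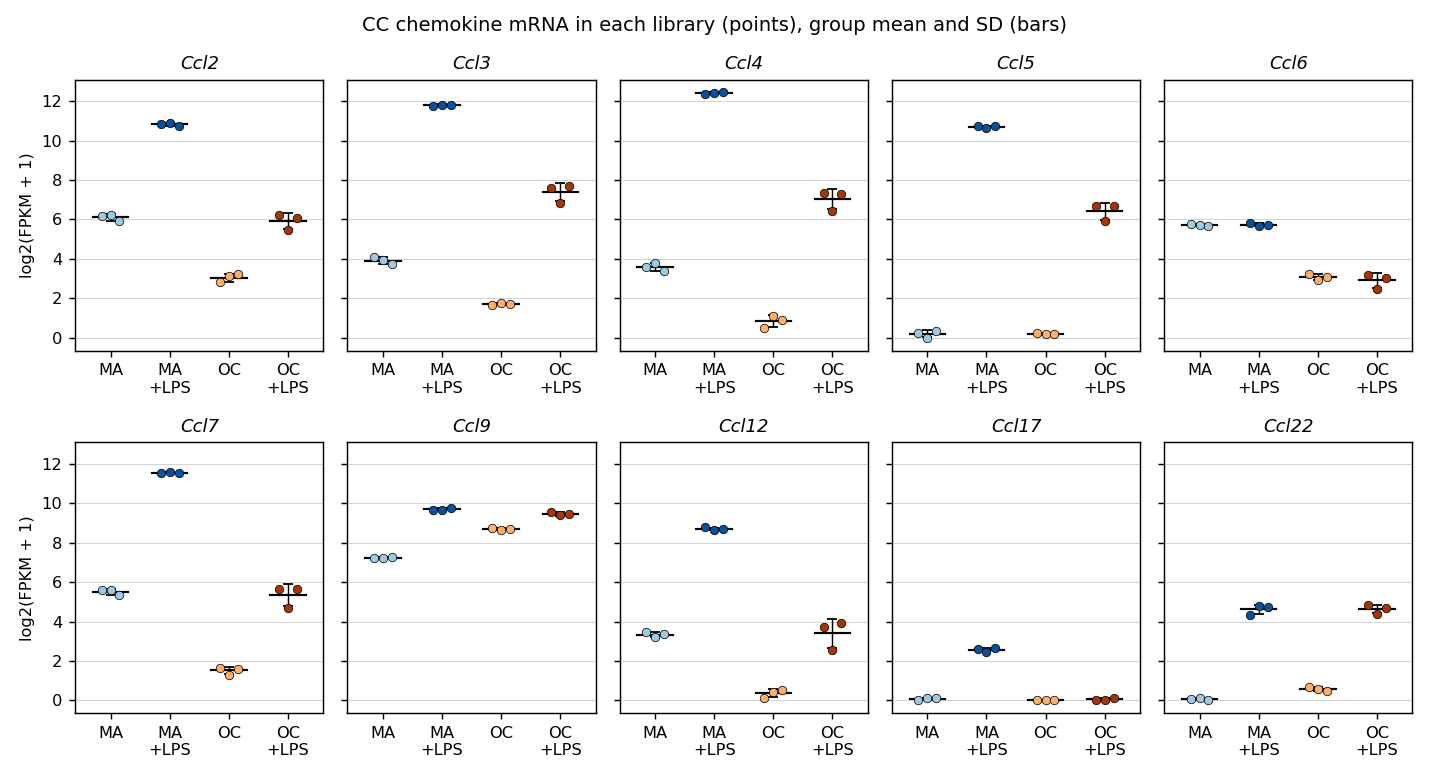
Level of each member as log2(FPKM + 1) in macrophages (MA) and osteoclasts (OC) with and without LPS, 1 panel per gene. Points are single libraries, and bars are the group mean and SD (n = 3). Ccl9 is the highest member in both osteoclast groups, and Ccl6 is level across LPS in each cell type.

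Ccl2, Ccl7 and Ccl12 are ligands of CCR2 and draw monocytes out of marrow and blood. In macrophages all 3 were already present before LPS and rose strongly, and in osteoclasts all 3 were lower with and without LPS. Ccl2 measured 70.3, 75.0 and 58.9 FPKM in the untreated macrophage libraries and 1866, 1891 and 1720.0 FPKM after LPS. In osteoclasts Ccl2 measured 6.09, 7.64 and 8.32 FPKM untreated and 73.0, 42.6 and 67.5 FPKM after LPS. The 4 groups overlapped only where LPS-treated osteoclasts met untreated macrophages, so that the induced level in osteoclasts was about the resting level in macrophages. LPS raised Ccl2 26.8-fold in macrophages and 8.31-fold in osteoclasts. By limma the log2 difference was 4.73 in macrophages and 2.87 in osteoclasts, each with an SE of 0.17 (adjusted p of 1.70e-10 and 2.45e-07).

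Ccl7 lies next to Ccl2 and was the member with the widest gap between the cell types after LPS. Its macrophage libraries held 47.6, 47.4 and 39.3 FPKM untreated and 2989, 3068 and 2949 FPKM with LPS. Its osteoclast libraries held 2.16, 1.48 and 2.06 FPKM untreated and 50.2, 24.8 and 48.9 FPKM with LPS. Of the LPS-treated osteoclast libraries, 2 lay just above the untreated macrophage range and replicate 2 lay below it. The induction was 67.1-fold and 21.7-fold, and the log2 difference was 6.04 in macrophages and 3.81 in osteoclasts, each with an SE of 0.21 (adjusted p of 1.18e-10 and 1.24e-07). After LPS, Ccl7 was 72.7-fold lower in osteoclasts than in macrophages.

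Ccl12, a mouse CCR2 ligand closely related to Ccl2, followed the same course at a lower level. Macrophage libraries held 10.1, 8.16 and 9.20 FPKM untreated and 437, 398 and 409 FPKM with LPS. Osteoclast libraries held 0.101, 0.331 and 0.438 FPKM untreated, which is 1, 3 and 4 reads, and 12.2, 4.95 and 14.0 FPKM with LPS. The ratio of group means was 45.3-fold in macrophages and 35.8-fold in osteoclasts, the latter with a 95% Poisson interval of 18.2 to 83.0 from its 8 untreated reads, covering counting error only. By limma the log2 difference was 5.36 in macrophages and 3.04 in osteoclasts, each with an SE of 0.26 (adjusted p of 2.71e-09 and 6.60e-06). On the ratio scale the induction of Ccl12 was therefore close in the 2 cell types, while its level after LPS was 39.9-fold lower in osteoclasts.

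Ccl3, Ccl4 and Ccl5 are inflammatory chemokines, of which Ccl3 and Ccl5 act on CCR1, and they recruit monocytes, T cells and natural killer cells. These 3 had the largest LPS effects of the family on the log2(FPKM + 1) scale in both cell types, and Ccl4 and Ccl3 became the most abundant of the 10 members in LPS-treated macrophages. Ccl3 measured 15.8, 14.3 and 12.2 FPKM in untreated macrophages and 3447, 3636 and 3621 FPKM after LPS. In osteoclasts it measured 2.19, 2.39 and 2.30 FPKM untreated and 195, 114 and 208 FPKM after LPS. None of the 4 groups overlapped, and LPS-treated osteoclasts stood above untreated macrophages. Ccl3 rose 253-fold with LPS in macrophages and 75.0-fold in osteoclasts, and the log2 difference was 7.89 in macrophages and 5.67 in osteoclasts, each with an SE of 0.18 (adjusted p of 2.64e-12 and 1.57e-09).

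Ccl4, the neighbour of Ccl3 at a distance of 13.2 kb and read from the opposite strand, reached the highest level of any member. Untreated macrophage libraries held 10.9, 12.8 and 9.46 FPKM, and LPS-treated ones held 5302, 5552 and 5623 FPKM, which made Ccl4 the gene of rank 4 by mean FPKM among all genes in that group. Untreated osteoclast libraries held 0.410, 1.17 and 0.891 FPKM (28 reads over the 3), and LPS-treated ones held 164, 86.6 and 155 FPKM. The groups did not overlap. LPS raised Ccl4 497-fold in macrophages and 165-fold in osteoclasts (95% Poisson interval 114 to 248). The log2 difference was 8.84 in macrophages and 6.19 in osteoclasts, each with an SE of 0.22 (adjusted p of 5.31e-12 and 3.28e-09).

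Ccl5, which attracts T cells, was close to silent without LPS in both cell types. Its untreated macrophage libraries held 4, 0 and 6 reads (0.180, 0 and 0.281 FPKM) and its untreated osteoclast libraries 3, 2 and 2 reads. After LPS it measured 1703, 1610.2 and 1718 FPKM in macrophages and 101, 58.9 and 101 FPKM in osteoclasts. The untreated groups overlapped each other, and the LPS-treated groups were far apart. The ratio of means in macrophages was 10928 with a 95% Poisson interval of 5942 to 22788, or 18659 without untreated replicate 3. Its log2 difference of 10.51 (2.10e-13 adjusted p, SE 0.17) was the largest of all genes tested. In osteoclasts the rise was at least 485-fold against a floor of 3 reads per library, and its log2 difference of 6.23 (6.35e-10 adjusted p, SE 0.17) ranked 5 among all genes tested. For Ccl5 nearly the whole gap between the cell types appeared with LPS: without it, osteoclasts and macrophages did not differ detectably, at -0.012 (0.955 adjusted p, SE 0.17).

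Ccl6 and Ccl9 are rodent chemokines that bind CCR1, and Ccl9 is a chemokine that osteoclasts are known to make under RANKL. They are neighbours, and LPS raised Ccl9 in both cell types while Ccl6 was called in neither. Ccl9 was the only member higher in untreated osteoclasts than in untreated macrophages at a level above 1 FPKM. It measured 147, 149 and 152 FPKM in untreated macrophages and 427, 399 and 411 FPKM in untreated osteoclasts, a 2.76-fold difference with no overlap. After LPS it measured 824, 819 and 872 FPKM in macrophages and 762, 676 and 693 FPKM in osteoclasts. LPS thus raised Ccl9 5.61-fold and 1.72-fold, with a log2 difference of 2.48 in macrophages and 0.78 in osteoclasts, each with an SE of 0.049 (adjusted p of 9.30e-13 and 3.91e-07). In macrophages it was 1.63 on quantile-normalized values. The lead of osteoclasts without LPS, 1.46 (5.76e-11 adjusted p, SE 0.049), was gone after LPS, when the difference was -0.24 (6.78e-04 adjusted p, SE 0.049). That last small difference depended on scaling: it was -0.081 (adjusted p 0.0838) on the TPM scale and 0.067 (adjusted p 0.128) on quantile-normalized values, the highest adjusted p among its alternatives, which began at 3.93e-05.

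Ccl6 differed between the cell types and showed no change with LPS that passed the test. It measured 53.5, 51.7 and 50.1 FPKM in untreated macrophages and 55.1, 49.2 and 51.9 FPKM after LPS, which are overlapping ranges. In osteoclasts it measured 8.48, 6.66 and 7.51 FPKM untreated and 8.22, 4.59 and 7.17 FPKM after LPS, again overlapping. The difference with LPS was 0.0063 in macrophages and -0.18 in osteoclasts, each with an SE of 0.15 (adjusted p of 0.975 and 0.439). Osteoclasts were 6.86-fold lower than macrophages without LPS and 7.82-fold lower with it. The missing LPS effect in macrophages is relative to the typical gene: on the TPM scale Ccl6 was called lower by LPS there, at -0.64 (adjusted p 0.00151), where the median of all genes tested also moved to -0.55. After quantile normalization it was also called lower, at -0.64 (adjusted p 0.00175), and adjusted p over all of its alternatives reached 1.

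Ccl17 and Ccl22 are the ligands of CCR4, draw regulatory and type-2 helper T cells, and are typical products of dendritic cells. The neighbours separated by cell type. Ccl22 measured 0.0371, 0.0915 and 0.0193 FPKM in untreated macrophages (2, 5 and 1 reads) and 0.583, 0.484 and 0.405 FPKM in untreated osteoclasts. After LPS it measured 19.5, 26.4 and 25.7 FPKM in macrophages and 27.3, 20.1 and 25.0 FPKM in osteoclasts. The LPS-treated groups overlapped, and Ccl22 was the 1 induced member whose level after LPS did not differ detectably between the cell types, at 0.017 (0.9 adjusted p, SE 0.12). The LPS response was a log2 difference of 4.56 in macrophages and 4.07 in osteoclasts, each with an SE of 0.12 (adjusted p of 9.45e-12 and 1.16e-09). On the ratio scale the induction was 484-fold in macrophages (95% Poisson interval 246 to 1122, from 8 untreated reads) and 49.2-fold in osteoclasts (38.3 to 64.5). With voom on recovered reads the log2 difference in macrophages was 8.85.

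Without LPS Ccl22 was 9.95-fold higher in osteoclasts than in macrophages, with a 95% Clopper-Pearson interval of 4.74 to 24.1 on the ratio of its 60 and 8 reads that covers counting error only. Without untreated macrophage replicate 2, which holds 5 of the 8 reads, the same ratio was 17.4-fold and the LPS ratio in macrophages was 846-fold. The cell type difference on the log2(FPKM + 1) scale was 0.51 (0.00214 adjusted p, SE 0.12). With voom on the recovered reads it was 3.27. Of the 6 dendritic cell markers, Itgax and Zbtb46 stood higher in osteoclasts without LPS, as Ccl22 did: Itgax, which osteoclasts share, was at 7.63 FPKM in osteoclasts and 1.31 FPKM in macrophages, and Zbtb46 at 0.546 and 0.0814 FPKM. In untreated osteoclasts Xcr1 was at 0.0784, Ccr7 at 0.0199, Flt3 at 0.00585 and Cd209a at 0 FPKM. The part of such cells in the Ccl22 level was not tested.

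Ccl17 was the rarest member. Its untreated macrophage libraries held 0, 1 and 1 reads and its LPS-treated macrophage libraries 5.03, 4.56 and 5.26 FPKM (106 reads in all), a rise of at least 19.5-fold, 2.49 (2.84e-11 adjusted p, SE 0.075), and 5.83 with voom. The 6 osteoclast libraries together held 1 read, in LPS-treated replicate 3. Osteoclasts with LPS were at least 15.0-fold lower than macrophages with LPS, and both osteoclast groups were at the floor, so no fold is given for LPS there. Cx3cl1, the gene between Ccl22 and Ccl17 and a chemokine of another class, was raised by LPS in both cell types, by 2.20 in macrophages and 1.01 in osteoclasts.

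**Figure D2:**
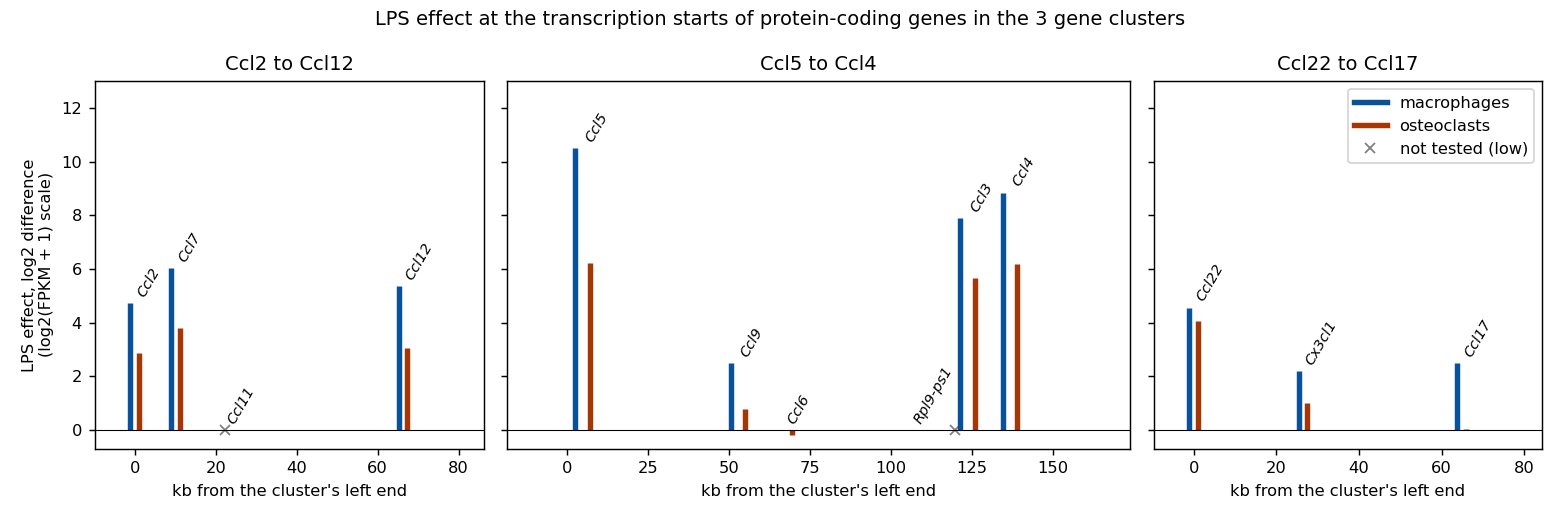
LPS effect as a log2 difference of FPKM + 1 (y axis) for the protein-coding genes of the 3 gene clusters, placed by the distance of their start sites from the left end of the cluster in kb (x axis), in macrophages (blue) and osteoclasts (red). Crosses mark genes that were not tested. Ccl6 stands at 0.0063 and -0.18 between induced genes.

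Without LPS, 6 members were lower in osteoclasts than in macrophages, 2 were higher, and Ccl5 and Ccl17 were not called. Called shares over all genes tested were 39.0% lower and 38.8% higher, so the split of the members is a description of these genes. The members lower in osteoclasts were Ccl2 (9.25-fold), Ccl3 (6.14-fold), Ccl4 (13.4-fold), Ccl6 (6.86-fold), Ccl7 (23.6-fold) and Ccl12 (31.6-fold), and the higher ones were Ccl9 and Ccl22. The median log2 difference of the 10 was -2.41, beside 0 over all genes tested. With LPS, 9 members were lower in osteoclasts, 0 were higher and Ccl22 was not called, beside 43.0% of all genes tested lower and 40.9% higher. The median of the members was then -4.35, beside -0.016 over all genes tested. Among the members with a ratio, which leaves out Ccl17 with its lower bound, the largest fold differences with LPS were those of Ccl7 (72.7-fold lower), Ccl4 (40.6-fold), Ccl12 (39.9-fold) and Ccl2 (29.9-fold).

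For 6 of the 9 members that were lower in osteoclasts with LPS, much of that gap was there before LPS. On the log2 ratio scale, the untreated difference between the cell types was 65.5% of the LPS-treated one for Ccl2, 73.7% for Ccl7 and 93.6% for Ccl12. For Ccl3 and Ccl4 it was 59.9% and 70.1%, and for Ccl6, whose LPS effects were not called, 93.6%. On the log2(FPKM + 1) scale the same shares were 62.0% for Ccl2, 64.1% for Ccl7, 56.3% for Ccl12, 49.6% for Ccl3, 50.8% for Ccl4 and 93.2% for Ccl6, and 0.273% for Ccl5 and 3.11% for Ccl17. Ccl9, the last of the 9, was higher in osteoclasts before LPS. Of the 6 macrophage markers, 4 were low in osteoclasts too: Mertk was at 9.22% of the macrophage level without LPS and 7.01% with it, Mrc1 at 0.877% and 0.814%, Adgre1 at 7.74% and 9.28%, and Cx3cr1 at 0.342% and 0.679%. Csf1r was at 70.4% and 69.7% and Cd68 at 209% and 175%. Chemokines in the same measure ranged from 3.17% (Ccl12) to 16.3% (Ccl3) without LPS among the 6 that were lower, and from 1.38% (Ccl7) to 12.8% (Ccl6) for the same 6 with LPS. The part of unfused cells in these values was not tested.

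Subtracting each gene's response in macrophages from its response in osteoclasts gives the interaction, which was called below 0 for 9 members and above 0 for 0, beside 30.0% and 26.6% of all genes tested. The median over the members was -2.23, beside -0.012 over all genes. It was -4.28 (2.33e-08 adjusted p, SE 0.24) for Ccl5, the largest, and -2.65 (1.45e-05 adjusted p, SE 0.31) for Ccl4. Ccl17 followed at -2.44, Ccl12 at -2.32, Ccl7 at -2.23, Ccl3 at -2.22, Ccl2 at -1.87 and Ccl9 at -1.70, with adjusted p between 1.88e-09 and 2.12e-04. For Ccl17, at the floor in both osteoclast groups, the interaction restates the macrophage effect. Ccl22 was near the threshold at -0.49 (0.0282 adjusted p, SE 0.17), and Ccl6 was not called at -0.19 (0.46 adjusted p, SE 0.21).

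Size on the log2(FPKM + 1) scale depends on how low a gene starts, so ratios of group means were also compared. On that scale the induction of Ccl2, Ccl3, Ccl4, Ccl7 and Ccl9, named after their values were seen, was 3.02 to 3.37-fold smaller in osteoclasts. The corresponding log2 values were -1.69, -1.75, -1.60, -1.63 and -1.70. Counting error is wider than this range for Ccl4, whose osteoclast fold of 165 had a 95% Poisson interval of 114 to 248. The range also includes LPS-treated osteoclast replicate 2. That library was at 50.0% to 60.7% of the other 2 for Ccl2, Ccl3, Ccl4 and Ccl7 and at 92.9% for Ccl9. How far the closeness of these factors depends on it was not tested. Over 205 genes raised in both cell types and above the floor in all groups, the median of the same measure was -1.43, with quartiles of -2.46 and -0.68, and the 5 members lay between those quartiles. Rescaling to TPM moved the median interaction of all genes tested to 0.51 and that of Ccl2, Ccl3, Ccl4, Ccl7 and Ccl9 to -1.20, -1.41, -1.50, -1.33 and -1.12, all still called. Quantile normalization gave -1.03 for Ccl2 and -1.05 for Ccl9. Ccl12 stood at -0.34 on the ratio scale, and its call was lost with a pseudocount of 0.1 (-0.76, adjusted p 0.269), on the TPM scale (-0.89, adjusted p 0.0743) and with voom on recovered reads (-0.46, adjusted p 0.655), while the lowest adjusted p among its alternatives was 1.19e-06. Ccl22 stood at -3.30 on the ratio scale, with voom at -3.25 (adjusted p 0.00549), and Ccl17 at -5.33 with voom.

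The call for Ccl22 did not hold without the filter (adjusted p 0.0749) or on quantile-normalized values (adjusted p 0.0707), and the lowest adjusted p among its alternatives was 7.61e-05. It was also lost when untreated macrophage replicate 1 or 3, LPS-treated macrophage replicate 2 or 3, untreated osteoclast replicate 1 or LPS-treated osteoclast replicate 2 was left out, with adjusted p from 0.0525 to 0.0688. Ccl4 was not called with voom (-1.58, adjusted p 0.174), where its lowest adjusted p among the alternatives was 2.75e-06.

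**Figure D3:**
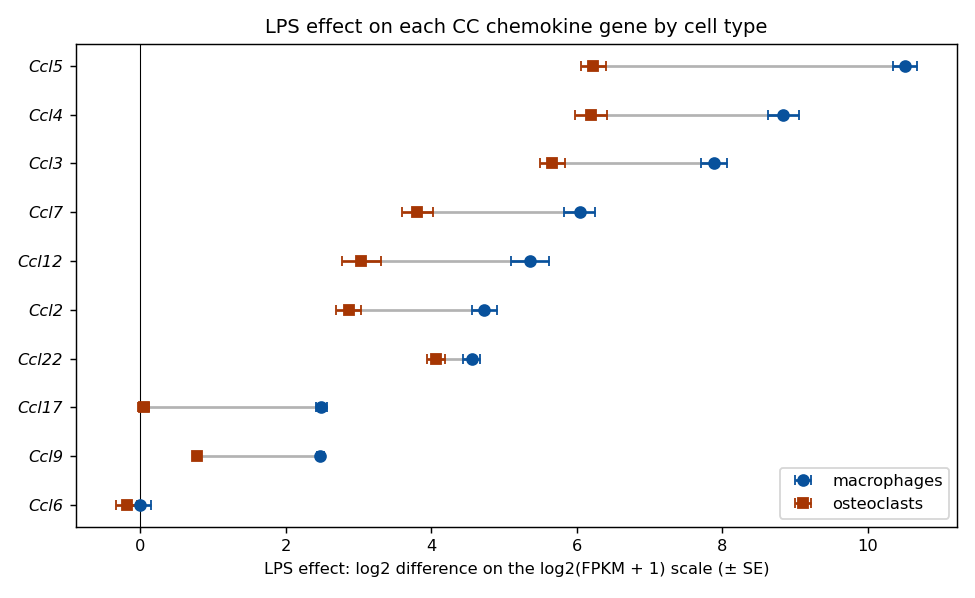
LPS effect of each member (x axis, log2 difference of FPKM + 1 with its standard error) in macrophages (blue circles) and osteoclasts (red squares), joined by a line. Ccl22 has the shortest line among the induced members, from 4.07 to 4.56, and Ccl5 the longest, from 6.23 to 10.51.

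Relative to its size in macrophages, the LPS effect in osteoclasts was 89.3% for Ccl22, 71.8% for Ccl3, 70.0% for Ccl4, 63.0% for Ccl7, 60.6% for Ccl2, 59.3% for Ccl5, 56.8% for Ccl12, 31.5% for Ccl9 and 1.95% for Ccl17, which was at the floor in osteoclasts. These are shares of a log2(FPKM + 1) difference, and their order depended on that scale. On log2 ratios of group means, the share was 93.9% for Ccl12, 82.2% for Ccl4, 78.0% for Ccl3, 73.2% for Ccl7, 64.4% for Ccl2, 63.0% for Ccl22 and 31.6% for Ccl9. Over the 231 genes called with a log2 rise of 1 or more in both cell types, the median share of the log2(FPKM + 1) difference was 47.8% with quartiles of 36.9% and 61.0%. These genes include 7 of the members and leave out Ccl6, Ccl9 and Ccl17. The rule drops genes with a smaller rise in osteoclasts, which favours higher shares. By size of the LPS effect among all genes tested, Ccl5 ranked 1 in macrophages and 5 in osteoclasts, Ccl4 7 and 6, and Ccl3 18 and 8. Ccl22 ranked 109 in macrophages and 20 in osteoclasts.

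Make-up of the chemokine total changed with both cell type and LPS. In untreated macrophages Ccl9 made up 42.9 ± 2.54% of the summed FPKM of the 10 genes, Ccl2 19.5 ± 1.59%, Ccl6 14.9 ± 0.400% and Ccl7 12.8 ± 0.845% (SD, n = 3). After LPS the macrophage total was led by Ccl4 at 32.5 ± 0.621% and Ccl3 at 21.1 ± 0.351%, followed by Ccl7 at 17.8 ± 0.359%, Ccl2 at 10.8 ± 0.597% and Ccl5 at 9.93 ± 0.425%. Ccl9 made up 4.96 ± 0.165% of that total although its own level rose. In untreated osteoclasts Ccl9 alone made up 95.2 ± 0.291%. In LPS-treated osteoclasts it still made up 57.6 ± 6.94%, with Ccl3 at 13.6 ± 2.40%, Ccl4 at 10.6 ± 1.95% and Ccl5 at 6.87 ± 1.03%. By mean FPKM Ccl9 ranked 79 among all genes in untreated osteoclasts and 49 after LPS.

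**Figure D4:**
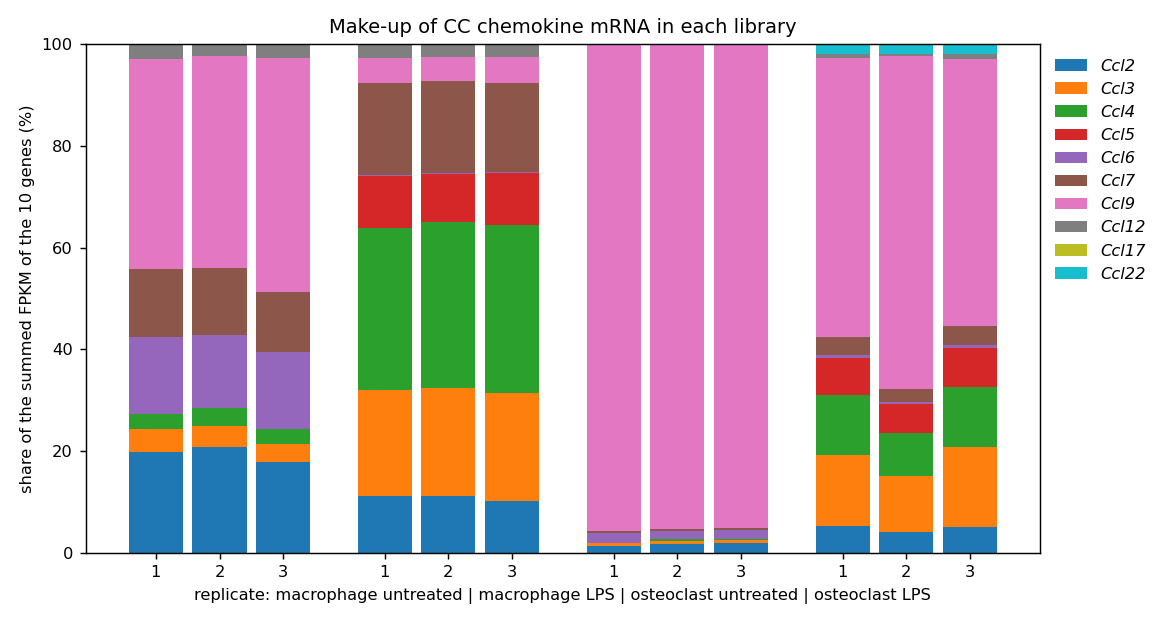
Share of each member in the summed FPKM of the 10 genes, in percent, with 1 bar for each of the 12 libraries. Ccl9 fills 95.2% of the untreated osteoclast bars and 4.96% of the LPS-treated macrophage bars on average.

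The order of the members by level was clearest in LPS-treated macrophages, where it ran Ccl4, Ccl3, Ccl7, Ccl2, Ccl5, Ccl9, Ccl12, Ccl6, Ccl22 and Ccl17 and no neighbours overlapped. In untreated macrophages it ran Ccl9, Ccl2, Ccl6 and Ccl7, which did not overlap, then Ccl3, Ccl4 and Ccl12, each overlapping the next, and then Ccl5, Ccl17 and Ccl22 near 0. In untreated osteoclasts Ccl9 stood alone, Ccl6 and Ccl2 overlapped, Ccl3 and Ccl7 followed, and Ccl4, Ccl22, Ccl12 and Ccl5 overlapped in turn above Ccl17. In LPS-treated osteoclasts Ccl9 was first, Ccl3, Ccl4, Ccl5, Ccl2, Ccl7 and Ccl22 each overlapped the next, Ccl12 and Ccl6 overlapped, and Ccl17 was last. These orders compare levels per kilobase of merged exon.

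Of 14 CC chemokine receptor genes considered, 4 were tested: Ccr1, Ccr2, Ccr3 and Ccrl2. In macrophages LPS raised 2 and lowered 2 of them, beside 36.8% and 33.1% of all genes tested, and in osteoclasts it raised 1 and lowered 0, beside 11.1% and 6.59%. Without LPS 2 were higher and 2 lower in osteoclasts, beside 38.8% and 39.0% of all genes tested, and with LPS 1 was higher and 3 lower, beside 40.9% and 43.0%. The interaction was called above 0 for 2 and below 0 for 2, beside 26.6% and 30.0%.

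Ccr1, a receptor for Ccl3, Ccl5, Ccl6, Ccl7 and Ccl9, had the highest level of these receptors in osteoclasts. It measured 12.7, 15.2 and 13.5 FPKM in untreated macrophages and 6.69, 5.35 and 5.07 FPKM after LPS. It measured 266, 253 and 254 FPKM in untreated osteoclasts and 314, 309.9 and 295 FPKM after LPS. Osteoclasts stood far above macrophages in every library, by 4.13 (7.03e-13 adjusted p, SE 0.082) without LPS. LPS lowered Ccr1 in macrophages, with a log2 difference of -1.15 (9.73e-08 adjusted p, SE 0.082). On the TPM scale this was -1.86, where the median of all genes tested was -0.55. In osteoclasts the difference of 0.25 (0.0589 adjusted p, SE 0.082) was not called, although the 3 LPS-treated libraries lay above the 3 untreated ones. It was called when only the 2 groups compared entered the fit (adjusted p 0.0122) and with voom (adjusted p 6.25e-04), the lowest among its alternatives, whose highest was 0.282. It was also called when untreated macrophage replicate 2 or LPS-treated macrophage replicate 1 or 3 was left out, and when the filter was a mean of 5 FPKM, with adjusted p from 0.0125 to 0.0496.

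Ccr2, the receptor for Ccl2, Ccl7 and Ccl12, measured 2.53 ± 0.146 FPKM in untreated macrophages and 1.65 ± 0.459 FPKM after LPS (SD, n = 3). In osteoclasts, where it never reached 1 FPKM, it was at the floor, with 3 reads over the untreated libraries and 4 over the LPS-treated ones. Ccr2 shares short stretches with other transcripts, 1.91% of its 50-base windows, so its values are somewhat uncertain.

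Ccr3, a receptor for Ccl5 and Ccl7 among others, rose in macrophages from 4.55 ± 0.0908 to 20.2 ± 0.596 FPKM with LPS, 1.93 (1.74e-11 adjusted p, SE 0.055). In osteoclasts it was already at 17.7 ± 0.726 FPKM and measured 18.3 ± 1.44 FPKM with LPS, 0.040 (0.677 adjusted p, SE 0.055). With LPS Ccr3 was lower in osteoclasts, with a log2 difference of -0.14 (0.0326 adjusted p, SE 0.055), which was 0.012 on the TPM scale and 0.086 on quantile-normalized values, and adjusted p over its alternatives ran from 0.0104 to 0.853. Without LPS-treated macrophage replicate 2 or 3 or LPS-treated osteoclast replicate 2 that call was lost. Ccrl2, an atypical receptor that binds chemerin and does not signal as the others do, rose in macrophages from 1.02 ± 0.313 to 199 ± 6.48 FPKM, 6.64 (1.32e-11 adjusted p, SE 0.18). In osteoclasts it rose from 0.0809 ± 0.0570 to 11.6 ± 3.62 FPKM, 3.50 (6.83e-08 adjusted p, SE 0.18), which was 6.02 with a pseudocount of 0.1 and 7.20 with voom. Its interaction of -3.13 became -0.44 (adjusted p 0.742) with voom on recovered reads, where its lowest adjusted p among the alternatives was 2.48e-08.

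**Figure D5:**
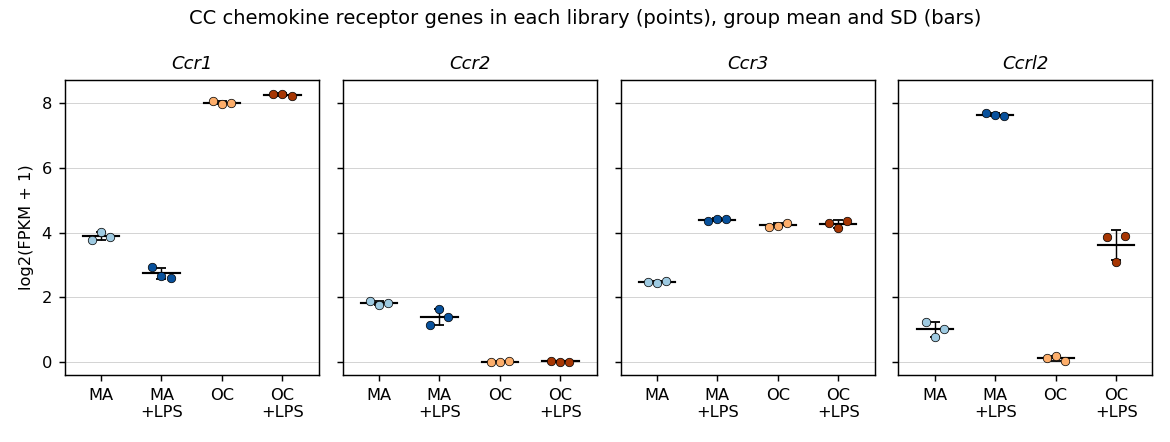
Level of 4 CC chemokine receptor genes as log2(FPKM + 1) in macrophages (MA) and osteoclasts (OC), with points for single libraries and bars for the group mean and SD (n = 3). Ccr1 is highest in osteoclasts, Ccr2 is near 0 there, and Ccrl2 rises with LPS in both cell types.

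Of 11 further CC chemokine genes listed, Ccl8 and Ccl24 were tested, and the other 9 did not reach the filter. Ccl8, in mice a ligand of CCR8, held 2 reads over the untreated macrophage libraries and 32.8, 26.1 and 36.1 FPKM after LPS, 4.94 (3.94e-12 adjusted p, SE 0.12), and 8.76 with voom. In osteoclasts it held 0 reads untreated and 0.593, 0.889 and 0.965 FPKM after LPS, 0.85 (2.94e-04 adjusted p, SE 0.12), which was 1.69 on the TPM scale, 3.17 with a pseudocount of 0.1 and 3.91 with voom. Ccl24, an eosinophil attractant acting on CCR3, measured 0.523 ± 0.372 FPKM in untreated macrophages and 3.01 ± 0.324 FPKM after LPS, 1.42 (1.54e-06 adjusted p, SE 0.14). This difference was 2.49 with a pseudocount of 0.1 and 2.71 with voom, and Ccl24 held 0 reads in every osteoclast library. Ccl8 and Ccl24 reached 1 FPKM in LPS-treated macrophages only, so they had to differ between groups to be tested. Ccl20 and Ccl11, below the filter, were seen only in LPS-treated macrophages, at 0.708 ± 0.0810 and 0.314 ± 0.119 FPKM, and held 0 reads in the other 3 groups.

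Genes with the pattern nearest to each member were found by Euclidean distance between centred log2(FPKM + 1) profiles over the 12 libraries, as a description. For Ccl2 the nearest of all genes tested was Ccl12, at a distance of 1.05, followed by Marcksl1 and Ifi211. For Ccl12 it was Ccl2, and for Ccl7 it was Ccl12 at 2.17. For Ccl4 it was Ccl3 at 1.93. Ccl2 and Ccl12 were thus nearest to each other, while Ccl4 was of rank 6 for Ccl3. This distance depends on the size of a change as well as its shape. By Pearson r, Ccl3 was closer to Ccl4 (0.9986) than to Ifit2 (0.9968), and Ccl7 closer to Ccl2 (0.9989) than to Ccl12 (0.9971). Ccl3 was nearest to the interferon-induced genes Ifit2 (1.06) and Mx1, and Ccl5 to Acod1 (1.10), Ifit1 and Cxcl10. Ccl22 was nearest to C3 (1.81), Ccl17 to Nr4a3 (0.30), Ccl9 to Jarid2 (0.41) and Ccl6 to Nusap1 (0.36). No member was among the 3 nearest genes of Ccl3, Ccl5, Ccl6, Ccl9, Ccl17 or Ccl22, and Ccl6 and Ccl9, 9.25 kb apart, were not near each other in pattern.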

How the data were processed

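RNA-seq libraries of mouse macrophages and osteoclasts, 3 per group, were described by 1 table of FPKM values that the authors deposited for 54532 Ensembl genes. Per the submitters' processing notes, the tools were fastp, STAR, featureCounts and DESeq2 and the build was mm10, with no version or role given. The strand setting and the FPKM formula are not given in the sources used here. The deposited FPKM values were, within a tolerance of 0.02 reads, whole multiples of a step per gene. Whole reads were recovered in this way for all 25854 genes above 0, and for 24997 of them (96.7%) at the merged exon length of GENCODE M21. The denominators matched size factors, so a difference is relative to the typical gene.

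The 11335 genes that reached 1 FPKM in 3 or more of the 12 libraries were tested with limma 3.58.1 (lmFit, contrasts.fit, eBayes with a variance trend, R 4.3.3) on log2(FPKM + 1), which understates the change of low genes. All 12 libraries entered 1 fit of 4 group means with 5 contrasts and tests were two-sided, with Benjamini-Hochberg adjustment over all genes tested and calls at an adjusted p under 0.05. Folds are ratios of mean FPKM. The floor was 3 reads: a group whose libraries all held no more counts as being at it, and folds against it are lower bounds computed from 3 reads per library. Intervals (exact Poisson, 95%) and floors cover counting error only, and reads carry no molecular identifiers.

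The steps were also run on simulated reads with far fewer changed genes than here and no difference between untreated cell types. That run does not measure their error in these data. The members and lists were chosen with earlier results of these data known. All 10 members are named, any gene of the lists of CC chemokine genes, receptors and cell type markers may be named except 1 receptor gene that is not reported here, and the 3 genes nearest in pattern to each member are named. The alternatives tried were rescaling to TPM, quantile normalization, a pseudocount of 0.1, a filter at a mean of 5 FPKM or none, only the groups compared, a replicate block, no variance trend, voom on recovered reads and each library left out. The ratio of group means without a pseudocount was added after seeing the data. Promoters were searched on both strands with Python 3.11.15, and figures were drawn with matplotlib 3.10.9.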

Additional observations from a re-analysis of the deposited data

Results flagged for a closer look

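For 9 members the test of the difference itself (limma's interaction, osteoclast effect minus macrophage effect, on the log2(FPKM + 1) scale) was called. The differences were -4.28 for Ccl5, -2.65 for Ccl4, -2.44 for Ccl17, -2.32 for Ccl12, -2.23 for Ccl7, -2.22 for Ccl3, -1.87 for Ccl2, -1.70 for Ccl9 and -0.49 for Ccl22. Among the other CC chemokine genes it was -4.08 for Ccl8 and -1.42 for Ccl24. Among the receptors it was 1.40 for Ccr1 and 0.43 for Ccr2, and -1.89 for Ccr3 and -3.13 for Ccrl2. Ccl17, Ccl24 and Ccr2 were at the floor of 3 reads in every osteoclast library, so their values restate the effect in macrophages. The call for Ccr2 was lost with a pseudocount of 0.1, without the filter, on quantile-normalized values, with voom and without untreated macrophage replicate 1 (0.40, adjusted p 0.0584), and adjusted p over its alternatives ran from 5.68e-04 to 0.55. Of all genes tested, 30.0% were called below 0 and 26.6% above 0 in this comparison.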

How the results depend on the processing

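With all libraries, 420 of 435 member values kept their direction and side of the threshold over the alternatives, 7 lost their call and 8 changed sign. With 1 library left out, 585 of 600 did so, 6 lost their call and 9 changed sign. The sign changes were of Ccl5 between untreated cell types (0.11 with a pseudocount of 0.1, 0.081 with quantile normalization, 0.61 with voom, and -0.11 to 0.067 with 1 library left out) and of Ccl6. For Ccl6 the LPS effect in macrophages was -0.64 on the TPM scale and -0.64 on quantile-normalized values, and -0.035 to 0.046 with 1 library left out. Its LPS effect in osteoclasts ran from -0.33 to 0.027 with 1 library left out, and its interaction was 0.37 on the TPM scale, 0.41 on quantile-normalized values and -0.34 to 0.021 with 1 library left out. With LPS, the difference between cell types was 0.067 for Ccl9 on quantile-normalized values, and for Ccl22 it ran from -0.12 to 0.14 with 1 library left out.

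Among the receptors, the LPS effect of Ccr3 in osteoclasts was -0.028 on the TPM scale, -0.041 on quantile-normalized values and -0.0047 to 0.10 with 1 library left out, and its difference between cell types with LPS was 0.012 and 0.086 under the same scalings. The LPS effect of Ccr2 in osteoclasts was -0.034 on quantile-normalized values and ran from -0.0067 to 0.0093 with 1 library left out, and its interaction was not called in 4 alternatives with all libraries. That of Ccl24 in osteoclasts was -0.024 with voom. The causes were not tested.

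Requiring a mean of at least 5 FPKM, which tests fewer genes and drops Ccl17, Ccl24 and Ccr2, called 4851 genes in place of 7921 for LPS in macrophages, 5427 in place of 8822 between untreated cell types, 5694 in place of 9509 between LPS-treated ones and 4018 in place of 6413 for the interaction. Of the members, 1 (Ccl6) in place of 0 was called lower by LPS in macrophages on the TPM scale and 1 (Ccl6) on quantile-normalized values. Rescaling to TPM moved the median of all genes to -0.55 in the LPS effect in macrophages, and the share of calls above 0 there was 18.5% in place of 52.6% (37.0% with quantile normalization). For the interaction that share was 82.0% in place of 47.0% (59.9%), for LPS in osteoclasts 43.5% in place of 62.8% (38.5%), and between untreated cell types 29.9% in place of 49.9% under TPM.

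With the replicate number as a block, the members called were 9, 8, 8, 9 and 9 over the 5 comparisons, as without it, and the block changed no call of a member. All genes called with the block were 7914, 1930, 8787, 9512 and 6422. Deviations of same-numbered libraries from their group means had r from -0.070 to 0.10, over 0.1 in 1 of 18 pairs. With 3 libraries per group this correlation cannot tell whether the number marks a shared mouse, culture or day. A fit of only the groups compared was not run for the interaction, which uses all 4. Members with few reads (Ccl5, Ccl12, Ccl17 and Ccl22 without LPS) are limited by counting.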
